A study of Mus musculus with 12 samples.

Results

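The complement genes described here encode soluble components, receptors and a regulator of the complement system, measured in mouse peritoneal macrophages with and without IκBζ. They were chosen by name, as genes whose probe sets carried exactly 1 gene symbol. Of 9 listed genes, 8 had such a probe set, out of 19938 genes measured, and each of the 8 had 1 probe set. These were the C1q subunit genes C1qa, C1qb and C1qc, the alternative pathway genes Cfb and Cfp, the receptor genes C3ar1 and C5ar1, and the regulator gene Serping1. C3, the ninth, is not analysed here.

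The 12 arrays came from adherent peritoneal lavage cells of female mice, in 4 groups of 3. These were Nfkbiz-/- cells given 1 µg/ml lipopolysaccharide (LPS, a bacterial cell wall component that activates Toll-like receptor 4) for 4 h, C57Bl/6 wild-type cells given the same dose, untreated Nfkbiz-/- cells and untreated C57Bl/6 cells. Nfkbiz encodes IκBζ, an inducible nuclear protein that binds NF-κB and modulates part of its target genes. Neither age, nor the construction of the Nfkbiz allele, nor whether arrays of a group came from separate mice is given in the sources used here, and the p-values cover the variation among these arrays alone, which could be technical.

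Complement is a cascade of plasma proteins and cell receptors that marks targets for uptake, forms membrane pores and releases peptides that attract leukocytes. C1q binds antibody complexes and dying cells and starts the classical pathway, in which C1r, C1s, C4 and C2 act in turn. Factor B, encoded by Cfb, carries the protease of the alternative pathway convertase, and properdin, encoded by Cfp, stabilises that convertase. C3ar1 and C5ar1 encode the receptors for the peptides released from C3 and C5, and Serping1 encodes the inhibitor of C1r and C1s. Macrophages are a known source of C1q, properdin and factor B outside the liver.

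Median intensity ranged from 110.4 to 118.7 over the arrays, and the number of arrays limits the precision of every value. Nfkbiz had 1568, 1335 and 1634 intensity units in knockout cells with LPS, against 3371, 3786 and 3079 in wild-type cells with LPS, a log2 difference of -1.17 (adjusted p = 7.23e-05, limma). In untreated cells it had 266.9, 285.6 and 274.4 units in the knockout, against 462.6, 430.7 and 406.3 in the wild type (-0.65, adjusted p = 0.0401). Whether its probes lie inside the deleted part is not given. All 8 macrophage markers were bright on average (mean log2 9.73 to 13.8). The knockout arrays numbered 2 stood apart in both treatments: mean log2 over 4 B cell markers was 7.06 with LPS and 7.31 untreated, against 7.84 to 8.07 on the other 4 knockout arrays, and mean log2 over 4 mast cell markers was 6.21 and 6.57, against 7.17 to 8.11.

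LPS moved the complement genes in several directions. In wild-type cells Cfb rose and C3ar1 fell, and in knockout cells C5ar1 rose while C1qc and C3ar1 fell. That was 2 of 8 genes called in the wild type, where 28.1% of all genes were called (9.53% higher, 18.5% lower), and 3 of 8 in the knockout, where 45.7% were (21.9% higher, 23.8% lower). A call means an adjusted p under 0.05 from limma, with Benjamini-Hochberg adjustment over all genes measured. At an unadjusted p under 0.05 there were 5 and 7, beside 7537 and 10729 of all 19938 genes. The median log2 difference over the 8 genes was -0.50 in the wild type and -0.57 in the knockout, beside 0.04 and 0.07 over all genes. With the 6 knockout arrays fitted alone and those of the same number treated as pairs, 7 of the 8 genes were called, 2 higher and 5 lower, beside 42.1% of all genes (17.6% higher, 24.5% lower). A fit that also paired the wild-type arrays called all 8, 3 higher and 5 lower, beside 47.1% of all genes (21.7% higher, 25.3% lower). Values given with pairs are from the knockout arrays alone. No label gives these pairs, and those of the knockout were inferred after seeing the data, from the same arrays. Wild-type pairs were not assumed elsewhere. Deviations from group means of same-numbered wild-type arrays correlated at -0.07, 0.14 and 0.36, so the count of all 8 rests on pairs these arrays hardly show. Centring every array on its 75th percentile raised the LPS difference of all genes by 0.15 in the wild type and 0.21 in the knockout, so negative differences smaller than that turn positive under it.

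**Figure D1:**
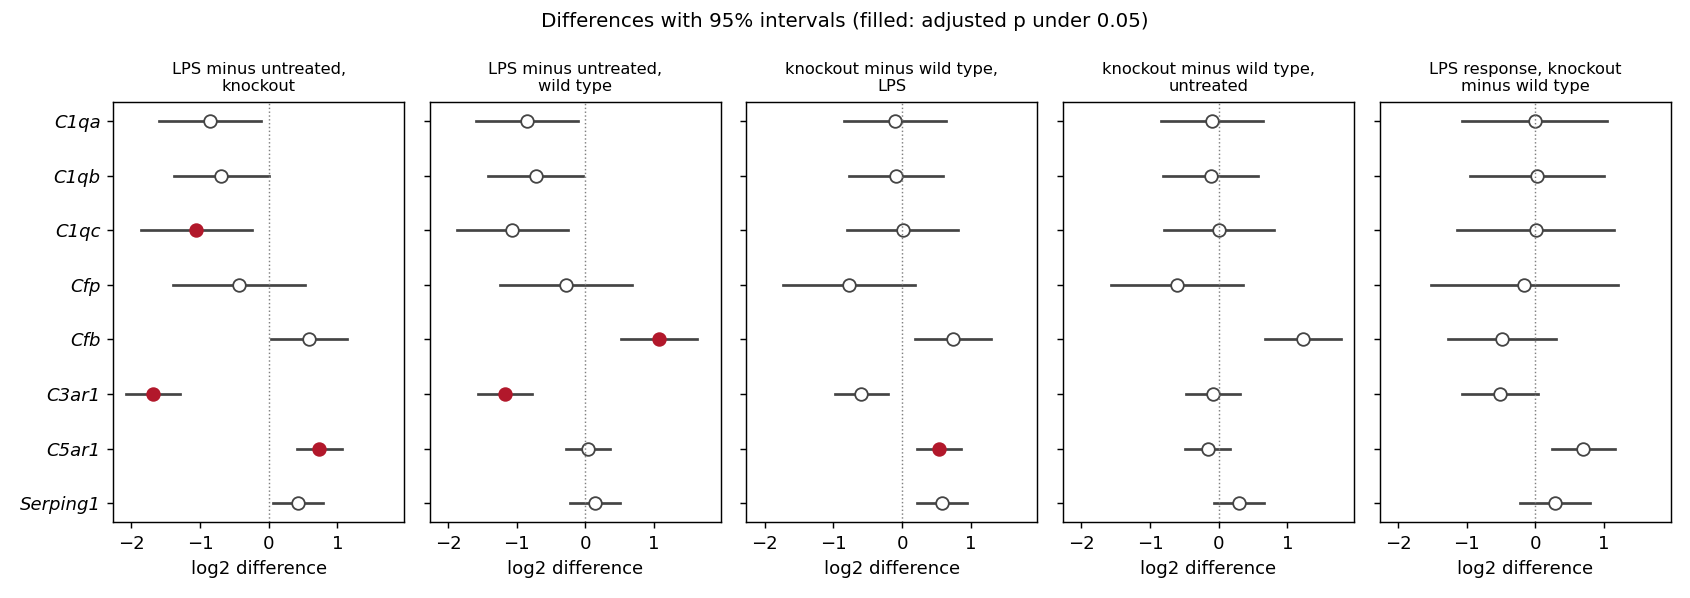
Log2 differences with 95% confidence intervals for the 8 complement genes in the LPS and genotype comparisons and the difference of LPS responses, with filled points where the gene was called. C3ar1 is the gene farthest below 0 with LPS in both genotypes, and Cfb is the gene farthest above 0 without LPS in the knockout against the wild type.

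The 3 C1q subunits, which assemble together into C1q, moved as one group. C1qa had 1934, 933.5 and 2514 units in knockout cells with LPS, against 3631, 1855 and 4019 in untreated knockout cells. In wild-type cells it had 1568, 2130 and 1685 units with LPS, against 3434, 2977 and 3221 untreated. Every same-numbered knockout pair was lower with LPS, and the wild-type groups did not overlap. The log2 difference was -0.86 in the knockout (adjusted p = 0.0581, or 2.77e-04 with pairs) and -0.85 in the wild type (adjusted p = 0.0876).

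C1qb, the brightest of the 3 probe sets, had 4734, 2067 and 5060 units in knockout cells with LPS, against 7533, 3890 and 7147 in untreated knockout cells. The wild type had 3439, 4420 and 3898 units with LPS, against 6688, 6256 and 6372 untreated. Again each knockout pair was lower with LPS and the wild-type groups were apart. Its log2 difference was -0.69 in the knockout (adjusted p = 0.0914, or 0.00120 with pairs) and -0.72 in the wild type (adjusted p = 0.115). C1qc had 2027, 788.7 and 2334 units in knockout cells with LPS, against 4014, 2066 and 4060 in untreated knockout cells. It had 1243, 1838 and 1597 units in wild-type cells with LPS, against 3739, 3018 and 2954 in untreated wild-type cells. C1qc fell in the knockout by 1.06 on the log2 scale (adjusted p = 0.0352, or 3.19e-04 with pairs), and its value in the wild type was -1.06 (adjusted p = 0.0507). This knockout call held in 9 of 12 fits leaving out 1 array and was lost with 75th percentile centring (-0.84, adjusted p = 0.0543). Without knockout LPS replicate 2 the knockout value was -0.57 (adjusted p = 0.110). In these mixed lavage cells, fewer cells of a type and less RNA per cell cannot be told apart.

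For wild-type cells the C1q calls turned on how the spread was estimated. A fit of the 6 wild-type arrays alone, which leaves out the wide spread of the knockout arrays, called C1qa (adjusted p = 0.00112), C1qb (9.06e-04), C1qc (0.00121) and Cfp (0.0297) lower with LPS, at the same log2 differences. That fit called 6 of the 8 genes, 1 higher and 5 lower, beside 30.7% of all genes (10.8% higher, 19.9% lower). The same kind of fit of the 6 knockout arrays, without pairs, called none of the C1q genes. Its adjusted p was 0.143 for C1qa, 0.196 for C1qb and 0.0992 for C1qc (limma).

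Genotype differences of the C1q genes were near 0 with wide intervals. With LPS the knockout minus wild-type log2 difference was -0.10 for C1qa (95% interval -0.85 to 0.64), -0.09 for C1qb (-0.78 to 0.60) and 0.01 for C1qc (-0.80 to 0.82). Untreated, the values were -0.09, -0.12 and 0.00. The width came mainly from the knockout arrays numbered 2, where C1qa, C1qb and C1qc lay 0.83, 0.83 and 0.98 log2 units below their group mean with LPS and 0.69, 0.61 and 0.64 below it untreated. Without both of those arrays the differences with LPS were 0.31, 0.33 and 0.50 (adjusted p = 0.243, 0.0823 and 0.085). The low C1q values moved with the low B cell and mast cell marker levels of the same arrays, and the part of those cells in the result was not tested. Mean log2 of the 8 macrophage markers was 12.26 with LPS and 12.37 untreated on these arrays, against 12.40 to 12.69 on the other 4 knockout arrays. Single markers went both ways. Among knockout arrays with LPS, replicate 2 was lowest for Fcgr1 (425.6 units, against 942.2 and 2455), Cd14 and Itgam. It was highest for Csf1r (6527, against 5892 and 5580), Cd68, Lyz2 and Mertk. Untreated, it was lowest for Fcgr1 and Itgam and highest for Csf1r, Cd68 and Lyz2.

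**Figure D2:**
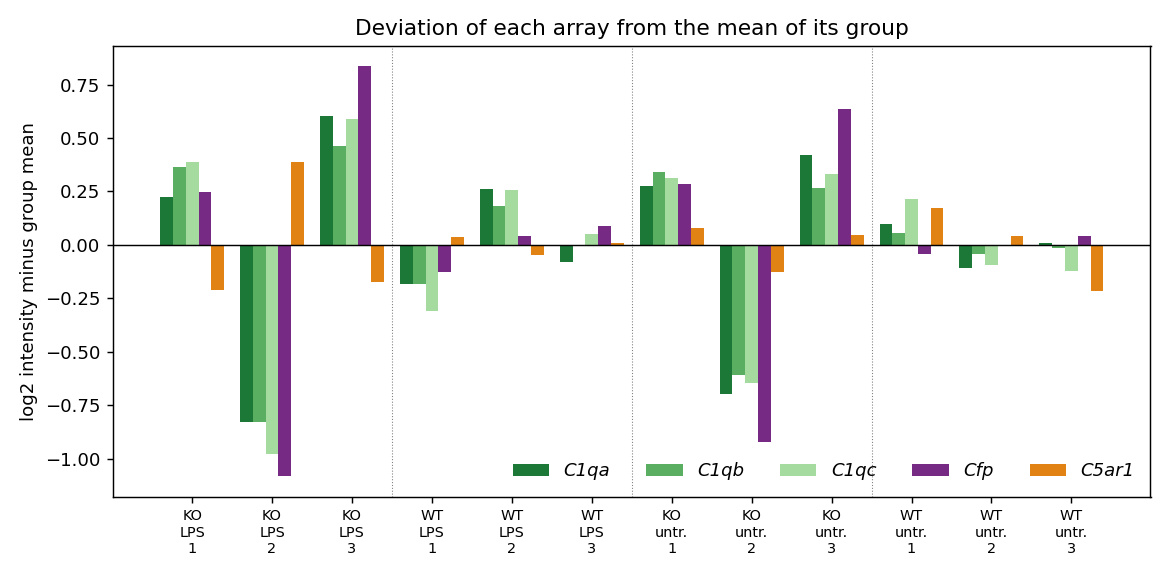
Deviation of each array from its group mean, in log2 units, as bars for C1qa, C1qb, C1qc, Cfp and C5ar1. C1qa, C1qb, C1qc and Cfp lie 0.61 to 1.08 below the group mean on both knockout arrays numbered 2.

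The 3 subunit genes lie next to each other on chromosome 4 in the RefSeq annotation, in the order C1qb, C1qc, C1qa. Over the 12 arrays the log2 values of C1qa correlated with those of C1qb at r = 0.987 and with those of C1qc at 0.982, and they were each other's most similar genes among 9563 candidates. The deviations from the group means, which hold no treatment or genotype difference, correlated at 0.974 to 0.985 among the 3. These arrays share the knockout libraries described above, so the coefficients are descriptions.

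Promoter sequence was available for C1qb and C1qc of the C1q genes, and for both receptor genes, which moved in opposite directions with LPS in the knockout. These sequences are shown because the pairs can be compared over the same 250 bases before the RefSeq start. They are from RefSeq on GRCm38.p6, minus strand, at chr4:136886201-136886450 for C1qb, chr4:136892915-136893164 for C1qc, chr6:122856158-122856407 for C3ar1 and chr7:16259339-16259588 for C5ar1. Capitals mark ACTTCCT, a core bound by ETS factors such as PU.1, a regulator of macrophage genes. The motif was chosen after the sequences were seen.
C1qb: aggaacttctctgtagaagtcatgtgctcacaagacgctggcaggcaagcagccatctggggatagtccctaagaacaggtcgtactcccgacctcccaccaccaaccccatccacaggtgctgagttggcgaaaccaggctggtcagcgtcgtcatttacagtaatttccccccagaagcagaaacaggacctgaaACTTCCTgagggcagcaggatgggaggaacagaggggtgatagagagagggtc
C1qc: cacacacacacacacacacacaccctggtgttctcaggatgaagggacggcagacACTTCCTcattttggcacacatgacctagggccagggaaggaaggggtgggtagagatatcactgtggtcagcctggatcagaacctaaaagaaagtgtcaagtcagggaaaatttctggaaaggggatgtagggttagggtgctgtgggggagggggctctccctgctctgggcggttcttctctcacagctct
C3ar1: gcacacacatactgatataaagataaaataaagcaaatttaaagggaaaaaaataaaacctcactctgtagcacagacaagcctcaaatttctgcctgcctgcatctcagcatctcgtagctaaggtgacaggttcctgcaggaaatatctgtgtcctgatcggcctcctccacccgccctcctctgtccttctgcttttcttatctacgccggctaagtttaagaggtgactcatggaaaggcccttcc
C5ar1: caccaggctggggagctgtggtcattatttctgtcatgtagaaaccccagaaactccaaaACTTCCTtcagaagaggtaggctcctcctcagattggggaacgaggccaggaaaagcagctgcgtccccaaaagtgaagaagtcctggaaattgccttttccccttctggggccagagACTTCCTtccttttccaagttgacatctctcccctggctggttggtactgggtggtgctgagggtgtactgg

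ACTTCCT, searched on both strands, lay 53 to 47 bases before the start of C1qb, 195 to 189 before that of C1qc, and at 190 to 184 and 72 to 66 before that of C5ar1. It was in 7.69% of 32851 promoter windows of the same length, and was not in the windows of C3ar1, Cfp or C3. Among the members with a window, an NF-κB motif was found only in that of C1qc, 41 to 32 bases before the start, and in 3.9% of all windows. The interferon response motif ISRE (2.98% of windows) and the STAT motif TTCNNNGAA (7.02%) had no match in the windows of Cfp, C1qb, C1qc, C3ar1 or C5ar1, and neither had the C/EBP motif TTGCNNAA (9.56%). The window of C3, whose level is not analysed here, held 1 match to the C/EBP motif, 45 to 38 bases before the start. A match describes these letters only.

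Cfb had the widest genotype difference of the 8 genes in untreated cells, though it was not called. In untreated cells it had 5844, 5325 and 7104 units in the knockout, against 3821, 2538 and 1790 in the wild type. With LPS it had 8974, 8841 and 9380 units in the knockout, against 5402, 7328 and 4065 in the wild type. The knockout and wild-type arrays did not overlap in either treatment. By group mean the order was 9065 ± 281 in knockout cells with LPS, 6091 ± 915 in untreated knockout cells, 5599 ± 1640 in wild-type cells with LPS and 2717 ± 1027 in untreated wild-type cells (SD, n = 3 each), and the middle pair overlapped.

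Cfb rose with LPS in the wild type by 1.07 on the log2 scale (SE 0.25, adjusted p = 0.00744, limma), a 2.10-fold change, and this call held in each of 12 fits leaving out 1 array. In the knockout its difference was 0.58 (adjusted p = 0.0784, or 0.00207 with pairs), and 0.80 with 75th percentile centring (adjusted p = 0.0131). The knockout minus wild-type difference was 1.22 untreated (adjusted p = 0.142, unadjusted 4.55e-04) and 0.74 with LPS (adjusted p = 0.103), neither of which passed. The difference between both LPS responses was -0.49 (adjusted p = 0.610). Among the 8 genes, none was called between genotypes without LPS, where 0.0752% of all genes were. At an unadjusted p under 0.05 there was 1, beside 1731 of all 19938 genes.

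Within groups, the Cfb level moved with that of interferon-stimulated genes. The mean log2 of 22 such genes was 12.31, 12.36 and 12.53 in knockout cells with LPS, against 11.28, 12.15 and 9.67 in wild-type cells with LPS. Untreated, it was 8.86, 8.54 and 10.33 in the knockout, against 8.56, 8.49 and 7.91 in the wild type. Wild-type LPS replicate 3, at 9.67, was the lowest of its group, and untreated knockout replicate 3, at 10.33, was the highest of its group. Arrays of a group had the same order by Cfb as by this level in every group except knockout cells with LPS. Without both of these arrays, the Cfb difference was 0.53 between genotypes with LPS, 1.11 between genotypes untreated, and 1.28 for LPS in the wild type. The part of interferon-stimulated genes in these results was not tested.

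**Figure D3:**
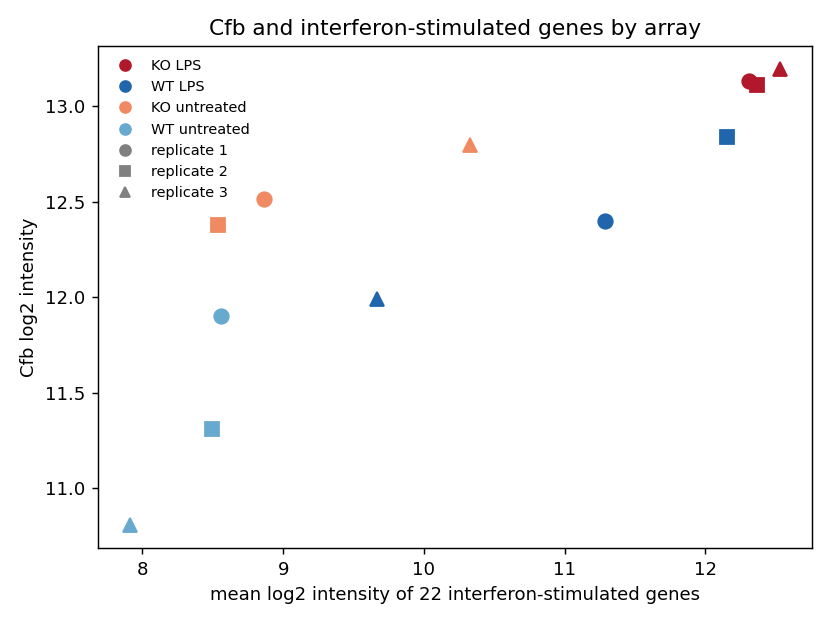
Cfb log2 intensity on each array against the mean log2 intensity of 22 interferon-stimulated genes, with colours for groups and symbols for replicates. Knockout arrays with LPS sit together at the top right, at 12.31 to 12.53 on the horizontal axis, while wild-type arrays with LPS spread over 9.67 to 12.15.

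Cfp, the properdin gene, was called with LPS in neither genotype when all 12 arrays were fitted without pairs. It had 4280, 1704 and 6433 units in knockout cells with LPS, against 5646, 6358 and 6554 in wild-type cells with LPS. Untreated, it had 5959, 2586 and 7597 units in the knockout, against 7274, 7486 and 7703 in the wild type. The knockout arrays were the more spread, with replicate 2 lowest in both treatments. The log2 difference with LPS was -0.44 in the knockout (adjusted p = 0.428, or 0.00946 with pairs) and -0.28 in the wild type (adjusted p = 0.679). Between genotypes it was -0.78 with LPS (adjusted p = 0.353) and -0.61 untreated (adjusted p = 0.721). Deviations of Cfp from its group means correlated with those of C1qa, C1qb and C1qc at 0.969, 0.952 and 0.936 over the 12 arrays.

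The receptor genes differed in direction. C3ar1, the C3a receptor gene, had 2201, 2478 and 3771 units in knockout cells with LPS, against 8355, 8228 and 9923 in untreated knockout cells. In the wild type it had 4035, 4942 and 3536 units with LPS, against 9382, 9428 and 9103 untreated. LPS arrays were below all untreated arrays in both genotypes. C3ar1 fell by 1.68 on the log2 scale in the knockout (adjusted p = 1.86e-05, limma) and by 1.17 in the wild type (SE 0.18, adjusted p = 4.00e-04), and both calls held in each of 12 fits leaving out 1 array. The difference of these responses, knockout minus wild type, was -0.51 (unadjusted p = 0.0654, adjusted p = 0.416), and it was not called.

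With LPS, C3ar1 averaged 2817 ± 838 units in the knockout and 4171 ± 713 in the wild type (SD, n = 3 each). The groups overlapped, since knockout replicate 3 at 3771 was above wild-type replicate 3 at 3536. The log2 difference was -0.59 (adjusted p = 0.0662). Without knockout LPS replicate 3 it was -0.82 (adjusted p = 0.00679), the 1 call in 12 fits leaving out 1 array. Over those fits it ranged from -0.82 to -0.43, with adjusted p up to 0.188. It was called with quantile normalization (-0.60, adjusted p = 0.0417) and with array weights (-0.60, adjusted p = 0.0158). With only the arrays given LPS in the fit it was not called (adjusted p = 0.207). Untreated, the genotypes differed by -0.08.

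C5ar1, the C5a receptor gene, had 3625, 5484 and 3720 units in knockout cells with LPS, against 2663, 2312 and 2609 in untreated knockout cells. In the wild type it had 2971, 2796 and 2910 units with LPS, against 3180, 2897 and 2426 untreated. The knockout arrays with LPS lay above all 9 others. C5ar1 rose with LPS in the knockout by 0.73 on the log2 scale (adjusted p = 0.00190, limma), in each of 12 fits leaving out 1 array. In the wild type its difference was 0.04 (95% interval -0.29 to 0.36, adjusted p = 0.878). The difference between both responses was 0.70 (unadjusted p = 0.00645, adjusted p = 0.169). None of the 8 genes was called for a difference of responses, where 0.747% of all genes were. At an unadjusted p under 0.05 there was 1, beside 2610 of all 19938 genes.

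Between genotypes with LPS, 4 of the 8 had an unadjusted p under 0.05, beside 4385 of all 19938 genes. C5ar1 was the 1 gene of the 8 called there, where 8.14% of all genes were called (3.28% higher). It was higher in the knockout by 0.54 on the log2 scale (adjusted p = 0.0477, limma). The call held in 2 of 12 fits leaving out 1 array. It held with 75th percentile centring and array weights, among others. It was lost with quantile normalization (0.48, adjusted p = 0.0650), with 16 added before log2 (adjusted p = 0.0506) and with a replicate block over all arrays (adjusted p = 0.0603). With only the arrays given LPS in the fit it was also lost (adjusted p = 0.140). Without knockout LPS replicate 2 the value was 0.34 (adjusted p = 0.0935). That array also had the highest neutrophil marker level of all 12, a mean log2 of 6.80 over 5 genes, against 6.68 and 6.69 on the other knockout arrays with LPS. S100a8 was high there (453.1 units, against 319.4 and 323.3 on the other knockout arrays with LPS), while Ly6g was lower (77.3, against 90.8 and 88.9). On wild-type arrays with LPS, S100a8 had 331.0, 392.4 and 397.0 units. Ly6g, S100a9, Mpo and Retnlg were dim, with mean log2 values of 5.39 to 6.80, below the median gene at 7.17. The part of neutrophils, which carry C5a receptors, was not tested.

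Serping1, the C1 inhibitor gene, was dim. It had 53.6, 78.4 and 95.6 units in knockout cells with LPS, against 50.7, 49.2 and 48.1 in wild-type cells with LPS. Untreated, it had 51.5, 62.6 and 51.3 units in the knockout, against 43.7, 47.2 and 43.4 in the wild type. All knockout arrays were above all wild-type arrays of the same treatment. Its mean log2 of 5.77 was at the 21.0th percentile of genes, while the other 7 lay between the 95.6th and 99.0th. The log2 difference between genotypes was 0.58 with LPS (adjusted p = 0.0543) and 0.29 untreated (adjusted p = 0.663). With LPS it was 0.43 in the knockout (adjusted p = 0.0544, or 0.0563 with pairs) and 0.14 in the wild type (adjusted p = 0.573). Folds of probe sets this dim are usually understated on arrays.

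**Figure D4:**
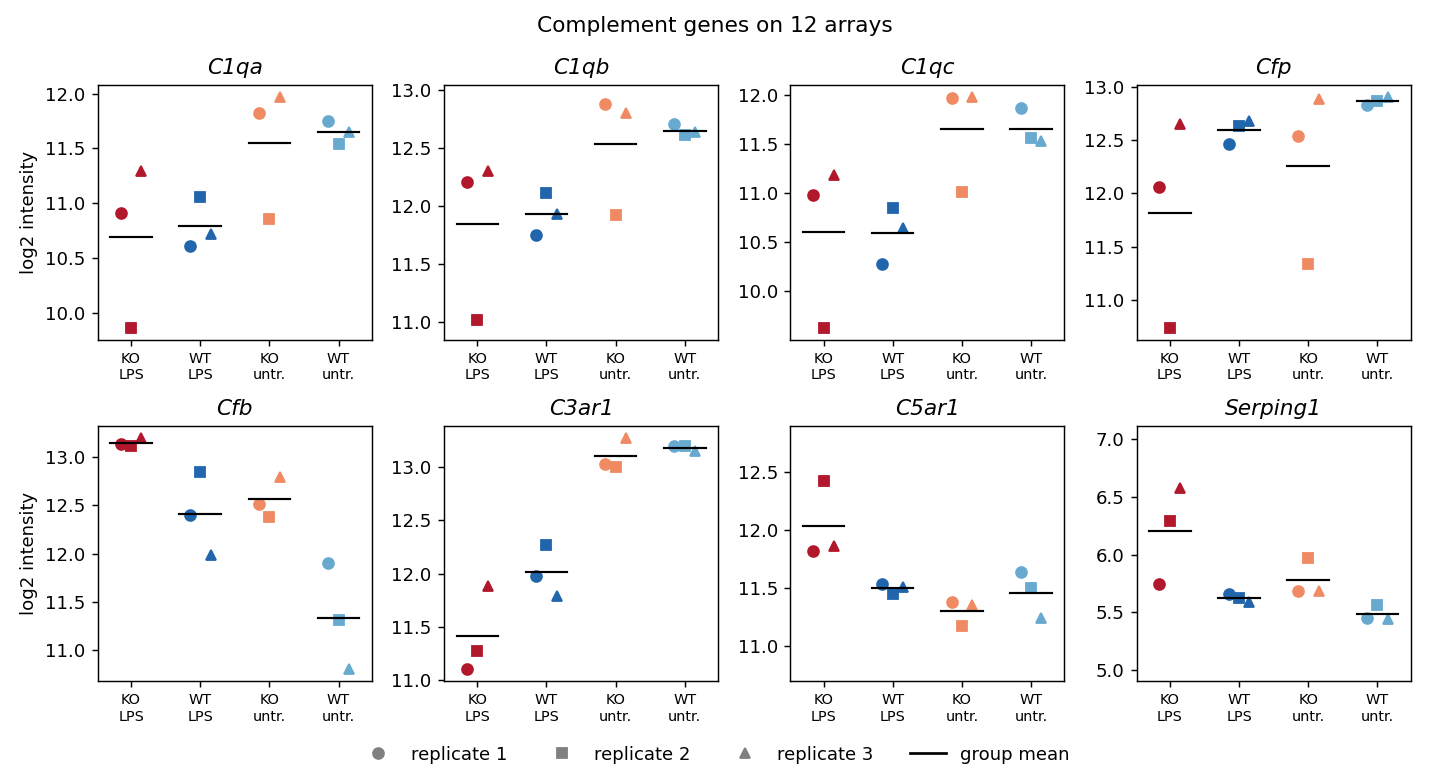
Log2 intensity (vertical axes, with a range of their own for each gene) of the 8 complement genes on every array, by group, with the group mean of log2 values as a line. C3ar1 with LPS (2201 to 4942 units before log2) lies below every untreated array, and the 3 knockout arrays with LPS (3625 to 5484 units before log2) are the highest for C5ar1.

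Of 43 other complement genes listed, 40 were measured. In wild-type cells with LPS, 1 was called higher and 6 lower, and in knockout cells 6 were called higher and 4 lower. These were 17.5% and 25% of the 40, beside 28.1% and 45.7% of all genes. The median log2 difference over the 40 was 0.01 in the wild type and 0.04 in the knockout. Cd93, a C-type lectin first described as a C1q receptor, fell by 1.98 on the log2 scale in the knockout (adjusted p = 8.24e-06, limma) and by 2.03 in the wild type (adjusted p = 1.09e-05). Cd59a, which blocks the membrane attack pore, fell by 1.13 in the knockout (adjusted p = 0.00329) and by 1.12 in the wild type (adjusted p = 0.00522). C1qbp, which binds the globular heads of C1q, fell by 0.69 in the knockout (adjusted p = 0.00172) and by 0.42 in the wild type (adjusted p = 0.0380), where the call held in 7 of 12 fits leaving out 1 array and was lost with quantile normalization (-0.23) and 75th percentile centring (-0.27). Itgb2, the beta chain of complement receptor 3, fell by 0.36 in the knockout (adjusted p = 0.00693) and by 0.31 in the wild type (adjusted p = 0.0228), and neither call held with 75th percentile centring (-0.15 and -0.16).

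Some LPS calls were made in only one genotype, and the difference between both LPS responses was called for none of the 40. C5ar2, the second C5a receptor gene, fell in the wild type by 0.65 on the log2 scale (adjusted p = 0.00157, limma). Its knockout value was -0.23 (adjusted p = 0.139). Vsig4, a macrophage receptor for C3b, fell in the wild type by 1.42 (adjusted p = 0.0485). That call held in 5 of 12 fits leaving out 1 array and was lost with quantile normalization (-1.27, adjusted p = 0.0766). Vsig4 had a similar knockout value of -1.25, which was not called (adjusted p = 0.0548). In the knockout Mbl1, a mannose-binding lectin gene, rose by 0.45 (adjusted p = 0.00239), and C8b, which encodes a chain of the membrane attack pore, rose by 0.36 (adjusted p = 0.00211). Their wild-type values were 0.21 (adjusted p = 0.126) and 0.03 (adjusted p = 0.818). Both were dim, with mean log2 values at the 15.1th and 29.1th percentiles of genes. Mbl1 averaged 48.7 units with LPS and 35.7 untreated in the knockout, and C8b 82.6 and 64.5, so expression in these cells is uncertain. Between genotypes without LPS, none of the 40 was called with limma, where 0.0752% of all genes were. At an unadjusted p under 0.05 there were 10, beside 1731 of all 19938 genes. For the difference of responses none of the 40 was called, where 0.747% of all genes were. There, 2 had an unadjusted p under 0.05, beside 2610 of all 19938 genes.

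With LPS, C2 and C1ra, both of the classical pathway, were higher in the knockout, and no other complement gene of the 40 was called. These calls were 5% of the 40, beside 8.14% of all genes (3.28% higher). C2, the protease of the classical convertase, had 279.3, 282.6 and 523.8 units in knockout cells with LPS, against 104.1, 187.4 and 71.4 in wild-type cells with LPS. The groups did not overlap, and the log2 difference was 1.63 (SE 0.34, adjusted p = 0.0143, limma). C1ra, which encodes the C1r protease, had 249.0, 279.6 and 350.3 units in the knockout, against 141.0, 196.7 and 112.4 in the wild type. These groups were also apart, and the difference was 0.99 (SE 0.20, adjusted p = 0.0133). Both calls held in 9 of 12 fits leaving out 1 array and were lost without wild-type LPS replicate 1, wild-type LPS replicate 3 or knockout LPS replicate 3. Without wild-type LPS replicate 3 the values were 1.31 for C2 and 0.80 for C1ra. With only the arrays given LPS in the fit, neither was called (adjusted p = 0.0828 for C2 and 0.0698 for C1ra). Both genes had the same order over the wild-type LPS arrays as the interferon-stimulated genes (11.28, 12.15 and 9.67), whose part in the result was not tested.

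All 6 measured classical pathway genes beyond C1q had positive genotype differences in both treatments, with a median of 0.83 with LPS and 0.67 untreated, beside -0.01 and -0.03 over all genes. C1s1 had 0.97 with LPS and 0.78 untreated, and C1s2 had 0.41 and 0.45. Both were dim, with mean log2 values of 5.32 and 5.36, at the 14.0th and 14.4th percentiles of genes. C4b had 0.70 and 0.54, and C4a 0.66 and 0.55. None of these 4 was called. C1s1 and C1s2, and C4a and C4b, are near-identical pairs whose probes may share transcripts, so their separate values are uncertain. C1rb was listed but not measured, and whether the C1ra value includes its transcripts is not known. Vsig4, chosen after its values were seen, had 1.55 with LPS (adjusted p = 0.0777) and 1.38 untreated (adjusted p = 0.455). C1s1 had 67.1, 30.6 and 93.8 units in knockout cells with LPS, against 26.0, 32.0 and 30.9 in wild-type cells with LPS, so knockout replicate 2 lay within the wild-type range. The mean log2 of 4 mast cell markers was 7.18, 6.21 and 7.87 on the same knockout arrays, against 6.12 to 6.62 in wild-type cells with LPS. Over 4 fibroblast markers it was 6.88 to 7.08 in knockout cells with LPS, against 7.13 to 7.35 in wild-type cells with LPS, and Dcn was the 1 marker of the 4 called lower. The part of mast cells and fibroblasts in these differences was not tested.

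**Figure D5:**
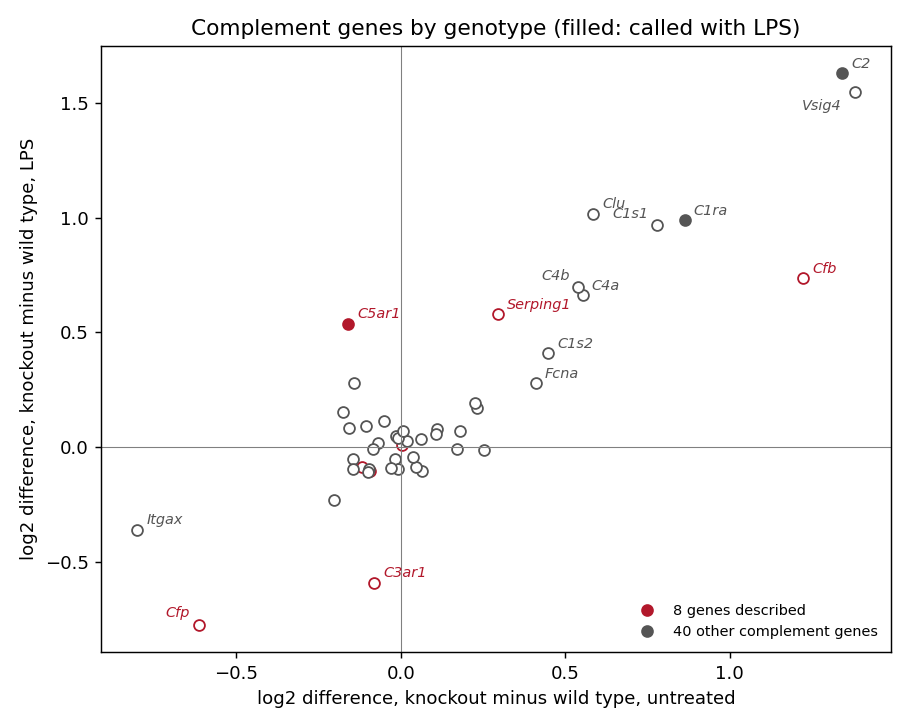
Knockout minus wild-type log2 differences with LPS (vertical) against untreated (horizontal) for the 8 complement genes and 40 other complement genes, filled where called with LPS. Cfb lies at 0.74 and 1.22, C2 at 1.63 and 1.34 and C1ra at 0.99 and 0.86, all above 0 on both axes.

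Cfb lies near C2, C4a and C4b in the RefSeq annotation, within the MHC region. Other measured genes lie among them, namely Cyp21a1, Stk19, Dxo, Skiv2l and Nelfe. None of those was called between genotypes, with values of -0.27 to 0.32 with LPS. Among the 40 measured genes nearest to Cfb, a window chosen after the values were seen, C2, C4a and C4b had genotype differences of 0.66 to 1.63 with LPS and 0.54 to 1.34 untreated. The other 37 genes ranged from -0.29 to 0.85 with LPS, with a median of 0.01, and from -0.39 to 0.28 untreated. With LPS, 3 of the 37 were called higher, where 3.28% of all genes were. They were Hspa1a at 0.85, Hspa1l at 0.51 and Vars at 0.45. Untreated, none of the 37 was called with limma, where 0.0752% of all genes were.

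The genes with the most similar profile over the 12 arrays, by Pearson's r of log2 intensity, are given for each gene as a description. For Cfb they were Orm1 (0.936), Irf7 (0.933) and Iqgap2 (0.927), and Irf7 is among the interferon-stimulated genes above. For Cfp they were Arg1 (0.978), Arnt (0.956) and Cacna1d (0.951). For C3ar1 they were Csf3r (0.978), Ssh2 (0.977) and Aldoa (0.975). C5ar1 was nearest to Nfkbil1 (0.938), Sirt1 (0.930) and Vezf1 (0.925), and Serping1 to Dnajc17 (0.939), Lnpk (0.893) and Sowahc (0.887). After the other subunits, C1qa and C1qb were nearest to Lrg1 (0.957 and 0.952) and C1qc to Clybl (0.954). All groups and the knockout arrays numbered 2 enter these coefficients.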

How the data were processed

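RNA of peritoneal cells was hybridised to 12 Affymetrix gene arrays, 3 in each of 4 groups, taken from the sample titles. The submitters' processing notes name RMA and Affymetrix Expression Console 1.1, and the deposited values are intensities on a linear scale. Scanner files were not used here. The design had assumed log2 values, so log2 was taken first with nothing added. The platform annotation gave 1 symbol to 21789 of 35556 probe sets, several to 1621 and none to 12146. The probe set with the highest mean stood for each of 19938 genes.

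Group means were fitted with limma 3.58.1 in R 4.3.3 (lmFit, eBayes, 8 residual degrees of freedom) for 5 comparisons, after a test on simulated data. Genes named were the 8 members, Nfkbiz, up to 6 called other complement genes per comparison with the widest differences, and the 3 most similar genes per member with a mean above the median gene. The members and lists were chosen with earlier results of these data known. Quantile normalization, centring on the 75th percentile, an offset of 16, dim genes left out, array weights, other fits and left-out arrays were tried.

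Deviations from group means of same-numbered arrays correlated at 0.32, 0.57 and 0.46 in the knockout, so its arrays were treated as pairs, from the data, in a fit of the 6 knockout arrays with a term per number. In the wild type they were -0.07, 0.14 and 0.36, and pairs were not assumed.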

Additional observations from a re-analysis of the deposited data

How the results depend on the processing

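The replicate block within genotype, the block on knockout arrays alone and both fits without a pair of outlying arrays were chosen after seeing the data. The complement counts depended mainly on how the spread was estimated and on which arrays entered. For LPS in the wild type, 2 members called became 5 with array weights, 6 with only the compared groups, 6 with the replicate block within genotype and 5 without both knockout arrays numbered 2. For LPS in the knockout, 3 became 8 with the replicate block within genotype, 7 with it on knockout arrays alone and 5 without both arrays numbered 2. Between genotypes with LPS, 1 became 2 with 75th percentile centring, 4 with array weights, and 0 with 16 added, with a replicate block over all arrays, with only the compared groups, or without either pair of outlying arrays. With quantile normalization that count stayed 1, but the gene was C3ar1 in place of C5ar1. Untreated, 0 became 1 with array weights. Leaving out 1 array gave 2 to 5, 2 to 6, 0 to 2, 0 to 0 and, for the difference of responses, 0 to 0.

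Over all genes, 5594 calls for LPS in the wild type became 10190 with 75th percentile centring and 10113 with array weights, and 9105 in the knockout became 14386 with that centring. Between genotypes with LPS, 1623 became 3296 with array weights, 492 with only the compared groups and 655 without both arrays of deviating interferon level. Untreated, 15 became 23 with quantile normalization, 25 with 75th percentile centring, 46 with array weights, 30 with the replicate block, 2 with only the compared groups and 81 without both knockout arrays numbered 2. For the difference of responses, 149 became 667 with array weights, 296 with the block within genotype and 45 without both arrays of deviating interferon level. Leaving out 1 array gave 4389 to 5950, 7668 to 9078, 712 to 2158, 6 to 23 and 55 to 365. The share of calls that were higher was 34.0% in the wild type (47.8% with quantile normalization, 72.8% with centring, 50.2% with weights), 47.9% in the knockout (76.6% with centring), 40.2% between genotypes with LPS (52.6%) and 40.3% for the difference of responses (55.6%).

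Signs turned only where neither value was called. With array weights these were C1qa 0.20 and C1qb 0.24 between genotypes with LPS, 0.065 and 0.044 untreated, and C1qa 0.14 and Cfp 0.0049 for the difference of responses. Without both knockout arrays numbered 2 they were C1qa 0.31 and C1qb 0.33 with LPS, 0.25 and 0.19 untreated, and C1qa 0.057 for the difference. Without both arrays of deviating interferon level they were C1qc -0.16 untreated, and Cfp 0.20 and C1qa 0.16 for the difference. C1qa was 0.050 for the difference with centring, and C1qb was -0.018 and C1qc -0.027 with quantile normalization. Leaving out 1 array, ranges that crossed 0 were -0.90 to 0.10 for Cfp with LPS in the knockout, -0.070 to 0.12 for C5ar1 in the wild type, -0.40 to 0.31, -0.32 to 0.33 and -0.28 to 0.50 for C1qa, C1qb and C1qc between genotypes with LPS, -0.30 to 0.25, -0.29 to 0.19 and -0.16 to 0.33 untreated, and -0.62 to 0.38 for Cfp, -0.36 to 0.40, -0.28 to 0.44 and -0.32 to 0.49 for the C1q genes in the difference of responses. The causes of these moves were not tested, and weak signal limits Serping1.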
